A study of Mus musculus with 8 samples.

Results

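Of the 11304 listed regions of open chromatin in the mouse hippocampus, 1834 (16.2%) lay in dense company, with at least 4 other listed regions whose midpoint fell within 100000 bp of their own on the same chromosome. These crowded regions were chosen from the list by position alone, without use of the read counts. The list itself depends on peaks in the same 8 libraries, since each listed region had a peak with a z score of at least 30 in at least 4 of them. At the edge of the rule, 661 crowded regions had exactly 4 such neighbours, and 1214 regions with exactly 3 neighbours stayed outside. Another 22 regions that met the distance rule at the start of chromosome 9, ending before position 3100000, were left out. Positions are those deposited, on the mm9 build, and a browser may show a start shifted by 1. The regions were not assigned to genes, exons, introns or promoters, because no mm9 annotation was used here.

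The regions came from Sono-seq, in which fixed chromatin is sheared by sonication and sequenced with no immunoprecipitation step, and reads pile up where chromatin breaks readily. All 8 libraries were made from the hippocampus of adult male C57BL/6J mice aged 2 months, 1 library per animal, and every animal had been handled daily beforehand. The control group of 4 mice was handled and not trained, and its tissue was taken at the hour used for the trained mice. The conditioned group of 4 mice was dissected 30 min after contextual fear conditioning, a training session in which a mouse receives a foot shock in a chamber that it learns to fear. The hippocampus was used whole, so a value averages over its neurons, glia and vessel cells, and fewer open cells cannot be told apart from less open chromatin per cell.

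Open chromatin marks promoters, enhancers and other regulatory DNA, where nucleosomes are sparse or displaced. Such sites are not spread evenly: mammalian chromosomes hold gene-rich stretches in which many promoters and enhancers sit close together, and gene-poor stretches with few. Repeated DNA can look similar to such a stretch, because reads from many copies can be placed at the few copies present in a genome assembly. Contextual fear conditioning is known to induce immediate early genes in hippocampal neurons within the first hour, and the comparison here asks whether crowded open regions as a class, or any cluster of them, changed in that window.

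The libraries differed widely in how many of their reads fell in the crowded regions. Total counts over all regions ranged from 36786183 to 83233550 per library, and the crowded regions took a small share of them. Control replicates 1 to 4 had 0.568%, 2.16%, 0.943% and 1.66% there, and the 4 conditioned replicates, in order, had 1.58%, 2.10%, 2.37% and 3.05%. The 95% Clopper-Pearson interval of each share was within 0.00464 percentage points of it, which covers counting error only, since the reads carry no molecular identifiers and can be copies of one molecule. Control replicates 1 and 3 stood apart with the lowest shares, and the TMM scaling factors, which set a library's typical region to a common level, were lowest there too (0.332 and 0.509, against 1.03 to 2.01 in the other 6 libraries). None of the 50 regions with the most counts was a crowded region. Outside those 50, the crowded regions held 17.0% ± 0.385 (SD, n = 4) of control counts and 17.3% ± 0.252 (SD, n = 4) of conditioned counts, a range of 16.7% to 17.7% over all 8 libraries. Since they took at most 3.05% of all counts, the 50 regions held most of the counts in every library. Levels below are CPM, counts scaled to library size, after TMM scaling, so they set a region against the bulk of regions in its library and not against all reads. A median crowded region had between 115 and 1112 reads per library.

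Linking crowded regions whose neighbouring midpoints lay at most 100000 bp apart gave 305 clusters. The median cluster had 5 crowded regions, the median span was 90.5 kb, and all spans together covered 38.5 Mb. A single region stood alone in 57 clusters, because the neighbours that qualified it did not themselves meet the rule, while 78 clusters had 2 to 4 regions and 125 had 5 to 9. The remaining 45 clusters had 10 or more and together held 792 regions, 43.2% of the set. Few outsiders were interspersed: 41 listed regions that did not meet the rule lay within the spans.

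Crowding was uneven over the 19 autosomes. On chromosome 8, 192 of 681 listed regions (28.2%) were crowded, the highest share, followed by 27.8% on chromosome 19, 27.0% on chromosome 17 and 26.4% on chromosome 7. The lowest shares were 4.46% on chromosome 3 (25 of 560) and 7.14% on chromosome 12 (34 of 476). Chromosome 11 had the most crowded regions in number, 202 of 871. In the RefSeq gene table of the GRCm38.p6 build, used only to count genes per chromosome, chromosomes with more protein-coding genes had more crowded regions (Pearson r = 0.67, Spearman rho = 0.67 over 19 chromosomes, given as a description). The relation was closer when the genes were themselves counted by the same rule, as genes with the midpoints of at least 4 other genes within 100000 bp (r = 0.81, rho = 0.85), and was r = 0.86 and rho = 0.85 when the olfactory and vomeronasal receptor genes, which form large tandem arrays, were left out. The number of all listed regions also followed the number of protein-coding genes (r = 0.86, rho = 0.92), so the relation was not particular to crowded regions. The 19 points share the total number of regions and of genes on a chromosome, which was not held constant.

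**Figure D1:**
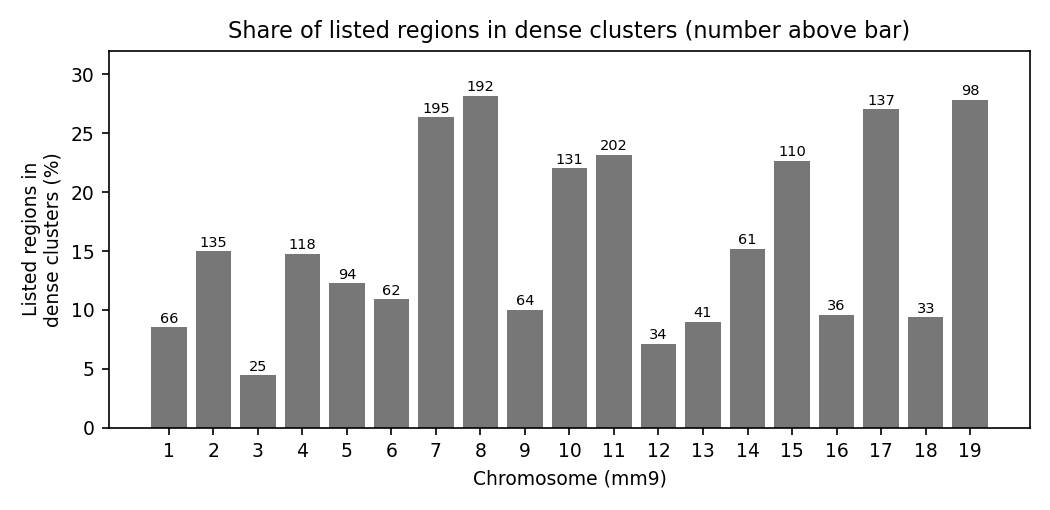
Share of listed regions that were crowded on each autosome (bars, % of the chromosome's listed regions), with their number above the bar. Shares ran from 4.46% on chromosome 3 to 28.2% on chromosome 8, and chromosome 11 had the highest number, 202.

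The largest cluster, chr10:79076260-81106710, had 101 crowded regions in a span of 2030.5 kb. The next in number of regions were chr8:72240239-73438880 with 51, chr11:3000188-3191332 with 35, chr7:19542773-20300897 with 33 and chr8:73895022-74447080 with 29. Chromosome 8 thus carried 2 of these 5, separated by less than the length of the first. Clusters of 17 to 20 regions were chr17:24563457-25097910 (20), chr8:19871454-20036739 (19), chr7:4642376-5032273 (19), chr12:113857977-114468748 (19), chr11:120166150-120583338 (18), chr9:20672935-21125335 (18), chr6:47690083-48036983 (17), chr7:25704013-26101032 (17) and chr15:76161455-76555455 (17).

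Chromosome 7 held the most clusters of 10 or more, 7 in all, and the others there were chr7:16631763-16987123 (14 regions), chr7:29870776-30117382 (11), chr7:52343682-52722363 (15) and chr7:52883526-53121773 (11). On chromosome 11 the remaining 3 of 5 were chr11:69418238-69814488 (14), chr11:97223781-97606382 (16) and chr11:100800282-101107932 (10), and on chromosome 8 the remaining 2 of 5 were chr8:86420939-86608839 (10) and chr8:87322922-87596080 (15). Chromosome 15 held 4 such clusters, of which 3 lay near each other (chr15:75738596-75922301 with 10, the cluster of 17 already given, and chr15:78632651-78940103 with 10) and the last was chr15:85367646-85566401 (10). Neighbouring pairs also occurred on chromosome 17, at chr17:25933117-26276360 (14) beside the cluster of 20, and on chromosome 19, at chr19:5366253-5771565 (15) and chr19:5963939-6498765 (16). A further cluster of 10 on chromosome 17 was chr17:47766117-48062217.

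The rest were spread singly. They were chr1:75137839-75543394 (16), chr1:85250694-85340939 (11), chr2:25036176-25259085 (12), chr2:74493076-74664343 (11), chr4:125780998-125999132 (10), chr4:151307272-151552942 (11), chr4:154998798-155336798 (13), chr5:23853851-24191977 (13), chr5:115607579-116015343 (15) and chr5:143996585-144310043 (11). The list closes with chr9:64948085-65284235 (10), chr10:126414979-126748851 (14), chr13:23625616-23854316 (11), chr16:17733853-17915303 (10) and chr18:35989113-36178413 (10). Chromosomes 3 and 14 held none.

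Packing separated 3 of these 45 clusters from the rest, a grouping made after the values had been seen. In chr11:3000188-3191332 there were 18.3 crowded regions per 100 kb, in chr1:85250694-85340939 12.2 and in chr8:19871454-20036739 11.5, whereas the other 42 clusters had 2.97 to 6.42. Neighbouring midpoints lay a median of 2163 bp apart in the first, 4132 bp in the second and 5343 bp in the third, against 13629 bp in the largest cluster on chromosome 10. The 65 regions of these tightly packed clusters were wide, with a median of 1158 bp against 750 bp in the other 1769 crowded regions, and 19 of the 65 had a strong peak in all 8 libraries, against 78 of 1769. Clusters of fewer than 10 regions were not grouped in this way, and some were as dense. Among them were chr6:48543543-48579833, with 5 regions at 13.8 per 100 kb, and chr8:123604430-123652672, with 6 at 12.4.

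Apart from their company, crowded regions resembled the other 9470 listed regions in most measures. They were somewhat narrower, with a median width of 750 bp (quartiles 526 and 1100 bp) against 896 bp (609 and 1350 bp). Their mean z score, the authors' own measure of peak height, had a median of 58.9, and the other regions had the same value. Both sets had a median of 6 carriers, the number of libraries in which a region has a strong peak (z score of at least 30), and 5.29% of crowded regions against 4.90% of the others had all 8. Per kilobase of region, the median level was 8.69 CPM in controls and 8.90 CPM after conditioning, against 7.73 and 7.67 CPM in the others. Within a group, the log2 CPM of a crowded region had a median SD of 0.69, against 0.71 in the others.

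Width was smaller where regions were more crowded. Regions with no other within the window had a median width of 1001.5 bp, those with 1 or 2 had 851 bp, those with 3 had 800 bp, those with 4 had 778 bp, and those with 5 or 6 had 718.5 bp. Beyond that the median was 751 bp at 7 to 9 neighbours and 750 bp at 10 or more, so the trend ended there.

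Strong peaks in the crowded regions followed the libraries more than the groups. A peak with a z score of at least 30 overlapped 408, 1646, 465 and 1344 of the 1834 crowded regions in control replicates 1 to 4. In the conditioned libraries, in order, the numbers were 1727, 1038, 1759 and 1820. The means were 965.75 ± 624 and 1586 ± 367 (SD, n = 4 each), and the groups overlapped, since control replicate 2 exceeded conditioned replicate 2. No test was made of this difference, because the region list depends on the same peaks: in all 1834 crowded regions the libraries with such a peak were as many as the deposited carriers. The other regions showed the same order of libraries, with 24.7%, 87.9%, 25.5% and 74.4% carrying such a peak in the controls against 22.2%, 89.7%, 25.4% and 73.3% of crowded regions. In the conditioned libraries the shares were 92.7%, 59.0%, 94.8% and 97.4% in the other regions and 94.2%, 56.6%, 95.9% and 99.2% in crowded regions. Within the cluster spans there were 645 to 3387 strong peaks per library, of which 204 to 1368 lay outside the listed regions. With every listed peak counted, whatever its z score, 1762 to 1834 crowded regions had one in each library.

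No crowded region differed between conditioned and control mice at an adjusted p below 0.05 in edgeR's quasi-likelihood test, which was fitted on all 11304 regions with Benjamini-Hochberg adjustment (background 0%), and the smallest adjusted p was 0.605. At an unadjusted p below 0.05, 49 crowded regions were higher after conditioning (2.67%, background 1.76%) and 70 were lower (3.82%, background 6.03%). This split depended on the scaling. With upper-quartile factors it was 70 higher (background 2.45%) and 52 lower (background 4.47%), and with no factor beyond each library's region total it was 235 higher (background 9.65%) and 5 lower (background 0.345%). A region total consists mostly of the 50 regions with the most counts, none of them crowded. With it alone, the median log2 fold change of conditioned over control was 0.75 over all regions. All 4 conditioned values lay above all 4 control values in 43 crowded regions (2.34%, background 1.5%), and below them in 8 (0.436%, background 0.902%).

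The log2 fold change of conditioned over control had a median of 0.01 over the crowded regions, against -0.06 over the other regions, with 929 above 0 and 905 below. From the 5th to the 95th percentile it ran from -1.11 to 0.89, while the median standard error of a single region was 0.50. Fold changes also varied with crowding. The median was -0.14 in regions with no neighbour, -0.03 at 1 or 2, 0.02 at 3, 0.05 at 4, 0.04 at 5 or 6 and 0.04 at 7 to 9, and then -0.27 at 10 or more neighbours. Of the regions with 10 or more neighbours, the 63 in the tightly packed clusters had a median of -0.97, with 22 lower and 0 higher at an unadjusted p below 0.05. The 102 such regions elsewhere had a median of -0.01, with 1 lower and 4 higher (background 6.03% lower and 1.76% higher). This split followed the values, and adjoining regions are not separate observations, so nothing is read from these counts.

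DESeq2's Wald test on the same counts gave 3 crowded regions an adjusted p below 0.05, of 1804 that it gave an adjusted p (0.166%, background 0.359%), and 0 of 303 clusters (background 0.384%). They were chr15:102767355-102767919 (adjusted p = 0.0268, higher), chr11:3058579-3060282 (0.0268, lower) and chr10:120411951-120413328 (0.031, lower). In edgeR's test each had an adjusted p of 0.605, and in 2 of them 1 library lay far above the rest of its group.

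In chr15:102767355-102767919, a region of 564 bp with 4 neighbours, the control libraries had 1.23, 2.58, 0.641 and 2.12 CPM and the conditioned libraries 3.04, 28.2, 9.09 and 6.05 CPM. All 4 conditioned values lay above all 4 control values, and conditioned replicate 2 was the highest. The means were 1.64 ± 0.871 and 11.6 ± 11.3 CPM (SD, n = 4 each), and the log2 fold change was 2.79 with a standard error of 0.68. Its whole cluster, chr15:102751646-102821296, had a log2 fold change of 0.70.

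The other 4 crowded regions with the smallest p in the higher direction were chr14:56380677-56381680, chr10:80958629-80959267, chr7:29052613-29053146 and chr1:75313744-75314694, each with an adjusted p of 0.605 in edgeR's test. In chr14:56380677-56381680 the control libraries had 8.25, 9.65, 6.19 and 8.57 CPM and the conditioned libraries 18.5, 34.8, 16.0 and 15.8 CPM, a log2 fold change of 1.38 (SE 0.39). In chr10:80958629-80959267, which belongs to the largest cluster, they had 4.42, 7.45, 4.97 and 5.69 CPM and 8.19, 32.4, 12.1 and 12.3 CPM, a log2 fold change of 1.52 (SE 0.47). The groups were apart in both regions. In chr7:29052613-29053146 the groups overlapped, with 2.05 to 5.15 CPM in controls and 5.32, 44.0, 4.55 and 6.64 CPM after conditioning, and the same held in chr1:75313744-75314694, with 13.5, 5.15, 5.93 and 4.29 CPM in controls and 10.8, 47.6, 18.4 and 12.98 CPM after conditioning. Conditioned replicate 2 was the highest library in all 5 regions named here as higher. Without it, the log2 fold change was 1.86 instead of 2.79 in the region on chromosome 15, 0.95 instead of 1.52 in that on chromosome 10, 0.67 instead of 2.13 in that on chromosome 7 and 0.97 instead of 1.64 in that on chromosome 1. In the region on chromosome 14 it was 1.38 with all libraries and 1.04 to 1.50 with each library left out.

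Among the 5 crowded regions with the smallest p in the lower direction, 2 lay in tightly packed clusters. In chr11:3058579-3060282 the control libraries had 53.5, 18.5, 106 and 38.4 CPM and the conditioned libraries 15.2, 7.27, 16.8 and 10.6 CPM, so the groups were apart, with a log2 fold change of -2.12 (SE 0.51). In chr1:85338794-85340939 the values were 28.8, 3.06, 12.5 and 9.95 CPM against 5.39, 2.38, 3.56 and 2.61 CPM, which overlapped, with a log2 fold change of -1.96 (SE 0.58).

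Control replicate 3 dominated the other 3. In chr19:4449130-4449644 it had 18.4 CPM, the other controls 1.75 to 2.87 CPM and the conditioned libraries 0.16 to 1.06 CPM, a log2 fold change of -3.62 (SE 0.86) with the groups apart. In chr13:120276369-120279315 it had 165 CPM, the other controls 11.5 to 30.5 CPM and the conditioned libraries 10.1 to 11.9 CPM. In chr10:120411951-120413328 it had 59.4 CPM, the other controls 4.58, 5.45 and 21.5 CPM and the conditioned libraries 2.07 to 5.75 CPM. When control replicate 3 was left out, the log2 fold change was -2.17 for the region on chromosome 19, -0.77 instead of -2.33 for that on chromosome 13 and -1.62 instead of -2.69 for that on chromosome 10.

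The crowded regions with the highest levels were not those with the smallest p. In chr17:36366943-36368767 the means were 116 ± 36.1 and 139 ± 41.3 CPM (control and conditioned, SD, n = 4 each), and in chr16:17222160-17222603, which had the greatest mean z score of the set at 276, they were 77.5 ± 50.3 and 93.9 ± 35.1 CPM. The other 3 lay in tightly packed clusters. They were chr11:3093681-3098182 (153 ± 97.7 and 69.5 ± 23.3 CPM), chr11:3091940-3093600 (115 ± 50.4 and 101 ± 28.2 CPM) and chr8:19917339-19920830 (113 ± 79.4 and 49.3 ± 22.2 CPM). In edgeR's test the adjusted p of these 5 ran from 0.613 to 0.958. All 5 carried a strong peak in every library. The difference lay within the spread between libraries, and the 2 adjoining regions on chromosome 11 had log2 fold changes of -1.14 (SE 0.48) and -0.19 (SE 0.41).

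With the counts of each cluster summed, no cluster passed either. Of 305 clusters, fitted beside the 9470 single regions in one table, 0 had an adjusted p below 0.05 in edgeR's test (background 0%), and the smallest adjusted p was 0.608. At an unadjusted p below 0.05, 0 clusters were higher (background 1.53%) and 6 were lower (1.97%, background 6.25%). With upper-quartile factors the split was 6 higher (background 2.2%) and 4 lower (background 4.66%), and with region totals alone it was 19 higher (background 9.16%) and 0 lower (background 0.338%). All conditioned libraries lay above all controls in 3 clusters (0.984%, background 1.32%) and below them in 3 (0.984%, background 0.992%). The log2 fold changes of clusters had a median of 0.03 and ran from -1.97 to 1.05, with 162 above 0 and 143 below, and the median standard error was 0.33.

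Among large clusters neither direction prevailed. Over the 45 clusters of 10 or more regions, 24 log2 fold changes were above 0 and 21 below, and the range was -1.11 to 0.30. The groups did not overlap in 1 of these 45, chr9:64948085-65284235, which is near the background (1.32% higher and 0.992% lower): controls had 81.5, 82.3, 80.4 and 76.1 CPM and conditioned libraries 66.3, 69.1, 68.8 and 73.3 CPM. The means of 80.1 ± 2.76 and 69.4 ± 2.90 CPM (SD, n = 4 each) gave a log2 fold change of -0.21 (SE 0.26, adjusted p = 0.896 in edgeR's test), and 6 of its 10 regions were lower and 4 higher. The highest region of a large cluster held 2.96% to 31.6% of the cluster's counts, with a median of 16.5%.

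The largest cluster, chr10:79076260-81106710, had nearly the same level in both groups. Control libraries had 716, 731, 848 and 797 CPM and conditioned libraries 705, 843, 805 and 772 CPM. The means were 773 ± 61.2 and 781 ± 58.4 CPM (SD, n = 4 each), and the log2 fold change was 0.01 (SE 0.31, adjusted p = 0.997 in edgeR's test), and the sign of so small a value changed with the scaling.

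Within that cluster the 101 regions went both ways, 49 higher and 52 lower, with log2 fold changes from -0.999 to 1.52. Control means ran from 2.22 to 26.2 CPM with a median of 6.20, conditioned means from 2.04 to 19.9 CPM with a median of 5.74, and widths from 428 to 2100 bp. Only 2 of the 101 had a strong peak in all 8 libraries, and 30 had one in 4. At an unadjusted p below 0.05, 2 of the 101 were higher, close to the background of 1.76%, and 0 were lower, under the background of 6.03%. The 2 were chr10:80958629-80959267, given above, and chr10:80812678-80813510, with 12.0, 4.36, 5.18 and 3.89 CPM in controls and 7.07, 35.8, 12.1 and 11.4 CPM after conditioning. These 2 lay 1737 and 1883 kb from the start of the cluster, and conditioned replicate 2 was the highest library in both. Without it, the log2 fold change of chr10:80812678-80813510 was 0.69 instead of 1.39.

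The groups did not overlap in 3 of the 101 regions, which is near the background (1.5% higher and 0.902% lower). Besides chr10:80958629-80959267 they were chr10:80296958-80298308, with 15.7 ± 4.19 CPM in controls and 9.47 ± 2.14 CPM after conditioning (SD, n = 4 each), and chr10:80317743-80318510, with 9.23 ± 1.17 and 14.4 ± 3.37 CPM. The last 2, at 1221 and 1242 kb from the start of the cluster, leaned in opposite directions, with log2 fold changes of -0.73 (SE 0.37) and 0.64 (SE 0.36). The highest region of the cluster was its last one, chr10:81105901-81106710, where control replicate 3 had 63.1 CPM, the other controls 7.34 to 20.8 CPM and the conditioned libraries 15.8 to 24.0 CPM. The lowest log2 fold change, -0.999 (SE 0.61), belonged to chr10:79895608-79896510, with 1.87, 8.91, 18.6 and 16.1 CPM in controls and 4.86, 9.36, 2.09 and 6.47 CPM after conditioning. Its groups overlapped, and control replicate 1 was the lowest of all 8 libraries there.

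**Figure D2:**
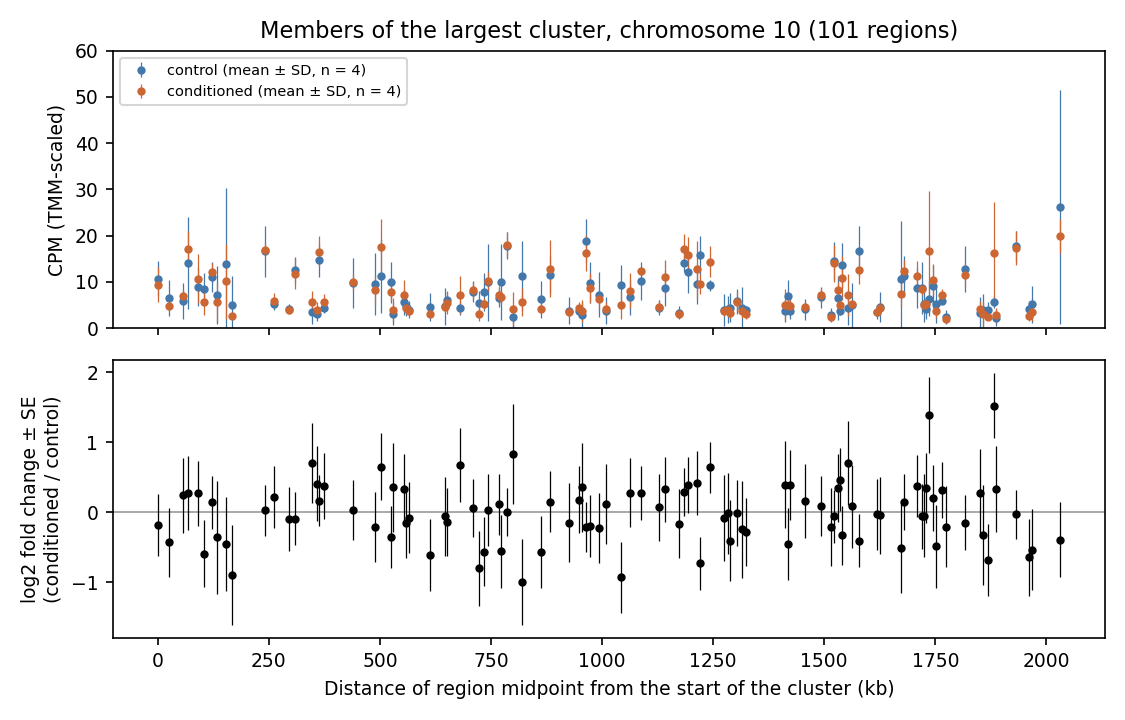
The 101 regions of the largest cluster by distance from its start (kb): CPM in each group (mean, with SD as a bar that the axis ends at 0, n = 4) above, and log2 fold change with its standard error below. The group means lie close together along most of the span, the widest bar is that of the last region in controls, and fold changes lie on both sides of 0.

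Of the other large clusters, chr8:72240239-73438880 with 51 regions had 440.0, 431, 389.7 and 387 CPM in controls and 386, 595, 493 and 457 CPM after conditioning. The means were 412 ± 27.3 and 483 ± 86.7 CPM (SD, n = 4 each) and overlapped, with 33 of 51 regions higher and a log2 fold change of 0.23 (SE 0.30, adjusted p = 0.901 in edgeR's test), which was 0.11 without conditioned replicate 2. Its neighbour chr8:73895022-74447080 with 29 regions leaned the other way, at 390, 229, 330.2 and 269.7 CPM in controls and 261, 262, 206 and 224 CPM after conditioning. There 22 of 29 regions were lower, and the log2 fold change was -0.35 (SE 0.30, adjusted p = 0.819 in edgeR's test), which was -0.23 without control replicate 1. The difference between these neighbours was not tested.

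In chr7:19542773-20300897, with 33 regions, the means were 220.4 ± 22.2 and 231 ± 31.6 CPM, and 22 of 33 regions were higher. In chr17:24563457-25097910, with 20 regions, they were 169 ± 42.4 and 177 ± 28.0 CPM. In chr6:47690083-48036983, with 17 regions, they were 254 ± 78.2 and 189 ± 37.1 CPM, a log2 fold change of -0.43 (SE 0.32), with 13 of 17 regions lower. For these 3 and the next 4, errors are SD over n = 4 per group and the groups overlapped. In chr9:20672935-21125335 the means were 136 ± 24.9 and 163 ± 20.9 CPM, a log2 fold change of 0.26 (SE 0.28), and 12 of 18 regions were higher. The remaining clusters among the 12 with the most regions differed by less: chr7:4642376-5032273 had 137 ± 18.1 and 142 ± 17.9 CPM, chr12:113857977-114468748 had 154 ± 29.6 and 159 ± 19.98 CPM, and chr11:120166150-120583338 had 182 ± 38.1 and 179.8 ± 27.5 CPM. In edgeR's test the adjusted p of these 7 ran from 0.786 to 0.996.

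**Figure D3:**
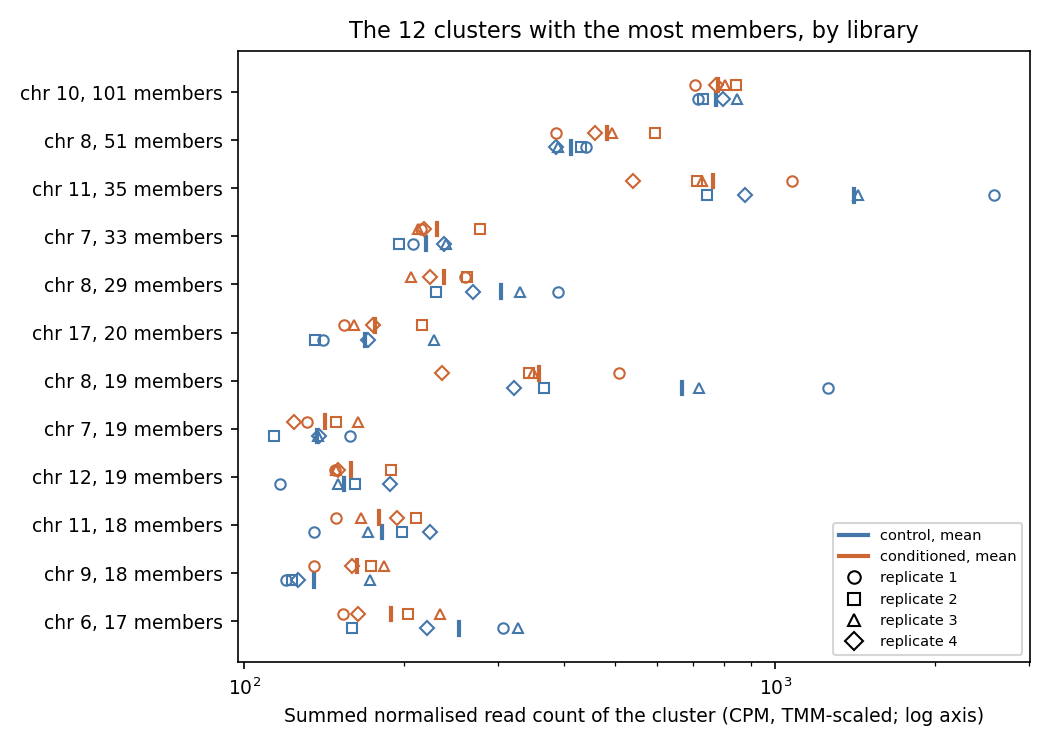
Summed CPM per library (points, 1 shape per replicate) and group mean (vertical bar) for the 12 clusters with the most crowded regions, here called members, on a log axis. Control and conditioned points overlap in all 12, and the widest spread is that of the controls in the tightly packed clusters with 35 members on chromosome 11 and 19 on chromosome 8.

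The tightly packed clusters had the largest differences in mean level among clusters of 10 or more regions, and control replicates 1 and 3 were the highest libraries in each. The same libraries were also highest in some less tightly packed clusters. Among them were chr8:73895022-74447080, chr6:47690083-48036983, chr8:71940172-72031672 and chr1:87448929-87505694. Whether the tightly packed clusters hold repeated sequence was not examined, since no mm9 genome was used here. In chr11:3000188-3191332 the control libraries had 2579, 743, 1430.2 and 877 CPM and the conditioned libraries 1076, 712, 729 and 540.4 CPM. In chr8:19871454-20036739 they had 1257, 367, 719.9 and 322 CPM and 507, 344, 350.3 and 235 CPM. In chr1:85250694-85340939 they had 254, 63.8, 161 and 54.8 CPM and 95.3, 52.8, 62.4 and 36.7 CPM. In each of the 3, control replicate 1 came first and control replicate 3 second, while control replicates 2 and 4 lay within the range of the conditioned libraries.

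The means of these clusters were 1407 ± 836 and 764 ± 224 CPM on chromosome 11, 666 ± 432 and 359 ± 112 CPM on chromosome 8, and 133 ± 93.6 and 61.8 ± 24.7 CPM on chromosome 1 (control and conditioned, SD, n = 4 each). The log2 fold changes were -0.88 (SE 0.44), -0.89 (SE 0.44) and -1.11 (SE 0.47), with adjusted p of 0.641, 0.641 and 0.608 in edgeR's test. Without control replicates 1 and 3, an alternative added after seeing the data, they were -0.10, 0.05 and 0.05. Since these were the 2 highest libraries of each cluster, that outcome follows from the choice and is given as a description. As a share of a library's region counts, without a TMM factor, the groups overlapped in all 3 and the conditioned mean was the higher one: 0.0892% ± 0.0146 and 0.105% ± 0.0136 on chromosome 11, 0.0412% ± 0.00885 and 0.0491% ± 0.00619 on chromosome 8, and 0.00789% ± 0.00156 and 0.00836% ± 0.00182 on chromosome 1 (SD, n = 4 each). A higher share after conditioning was not particular to these clusters. When counts were scaled by region totals only, the median log2 fold change over all regions was 0.75. On that scale the clusters on chromosomes 11, 8 and 1 had 0.24, 0.25 and 0.084, all below that median. Control replicates 1 and 3 had the lowest TMM factors. The part of the scaling or of library composition in the group difference was not tested.

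**Figure D4:**
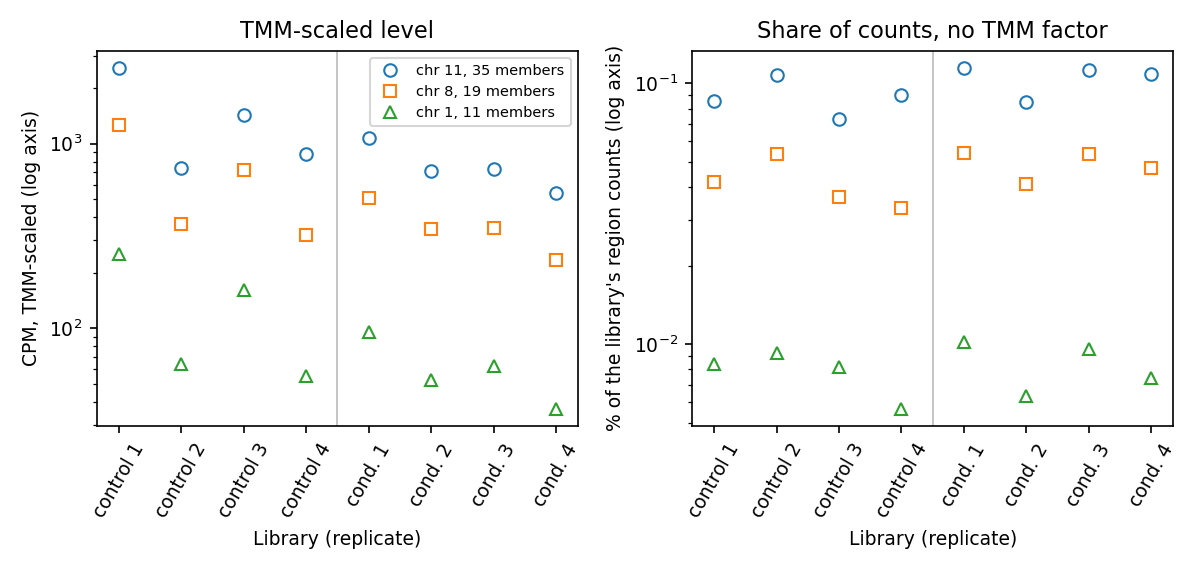
The 3 tightly packed clusters by library, as TMM-scaled CPM and as a share of the library's region counts (both log axes). On the scaled axis control replicates 1 and 3 stand above the rest, and on the share axis the groups overlap in all 3.

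Regions of the tightly packed clusters leaned the same way. Of their 65 regions, 62 had a log2 fold change below 0 and 3 above it, with a median of -0.97, and 23 (35.4%, background 6.03%) were lower at an unadjusted p below 0.05 while 0 were higher (background 1.76%). The grouping followed the values, so nothing is read from these counts. Control replicate 1 was the highest library in 31 of 35 regions on chromosome 11, in 19 of 19 on chromosome 8 and in 10 of 11 on chromosome 1. Levels per region were high on chromosome 11, with control means from 9.42 to 153 CPM, and lower on chromosome 1, from 7.45 to 31.2 CPM. Without these 65, the crowded regions had a median log2 fold change of 0.04, with 926 above 0 and 843 below, and at an unadjusted p below 0.05 there were 49 higher (background 1.76%) and 47 lower (2.66%, background 6.03%).

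Neighbours in a cluster varied almost as much as regions in different clusters. Over the 170 clusters of 5 or more, the tightly packed ones included, the log2 fold changes of 1559 regions had an SD of 0.62. The SD within clusters was 0.59. Differences between clusters made up 10.3% of the variance, and 1.19% when the tightly packed clusters were left out. Pairs of regions of one cluster had a median correlation of 0.05 in their deviations over the 8 libraries (13537 pairs, which share libraries and depth, given as a description). The median was 0.73 in the tightly packed clusters (821 pairs) and 0.01 between regions of different clusters. It was 0.02 in the other clusters of 5 or more, where a large cluster gives many more pairs than a small one. Small clusters packed as densely are among these and were not taken separately.

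**Figure D5:**
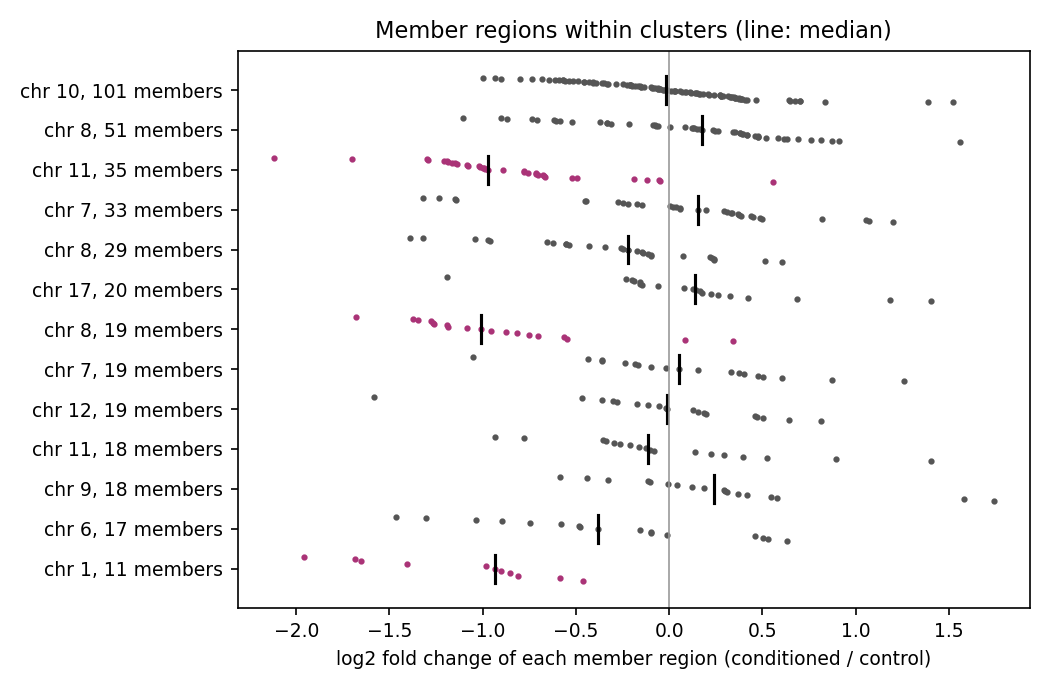
Log2 fold change (conditioned over control) of each crowded region, here called a member, in the 12 clusters with the most members and in the tightly packed cluster on chromosome 1 (1 point per region, bar at the median; the tightly packed clusters in purple, points offset vertically for legibility). The medians of the purple rows are -0.97, -1.01 and -0.93, and those of the other 10 rows run from -0.38 to 0.24, with points on both sides of 0 in each.

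All regions of a cluster leaned one way in 11 of these 170 clusters, 6 higher and 5 lower. The 9 regions of chr17:33953446-34259910 were all higher, with log2 fold changes from 0.08 to 0.91. Its control libraries had 96.8, 115, 103 and 123 CPM and its conditioned libraries 121, 147, 139 and 133 CPM, so control replicate 4 exceeded conditioned replicate 1 by a little and the groups otherwise stood apart. The cluster's log2 fold change was 0.31 (SE 0.27, adjusted p = 0.821 in edgeR's test). The largest cluster with all regions lower was the tightly packed one on chromosome 1.

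The clusters with the smallest p were mostly small. In the higher direction they were chr14:47407635-47452662 with 3 regions and 4 clusters of a single region each, none of which passed (adjusted p 0.633 to 0.645 in edgeR's test). In chr2:25462585-25464185, 1 of these single regions, the groups did not overlap: controls had 6.56, 9.50, 7.47 and 6.87 CPM and conditioned libraries 11.4, 16.6, 9.92 and 13.5 CPM, a log2 fold change of 0.76 (SE 0.36). In chr14:47407635-47452662 the means were 12.5 ± 2.63 and 22.0 ± 11.4 CPM (SD, n = 4 each), with 38.5 CPM in conditioned replicate 2 against 12.4 to 19.1 in the rest of its group. Conditioned replicate 2 also had the highest value in chr16:11066003-11067272, 58.6 CPM against 11.7 to 12.9 in the other conditioned libraries and 8.11 to 16.6 in controls, and there the log2 fold change was 1.05 with it and 0.10 without it. The remaining 2 were chr4:134407542-134410174, with 14.8 ± 5.39 and 25.9 ± 9.58 CPM, and chr13:47109490-47110366, with 10.4 ± 4.63 and 18.2 ± 5.44 CPM.

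In the lower direction the cluster with the smallest p, chr13:120197466-120284190 with 5 regions, had 72.6, 32.1, 193 and 30.4 CPM in controls and 31.7, 38.7, 32.01 and 29.1 CPM after conditioning. Its log2 fold change was -1.32 (SE 0.50) and rested on control replicate 3, since it was -0.49 without that library. In chr4:153385368-153455748, with 3 regions, control replicate 3 had 127 CPM, the other controls 4.81 to 23.2 CPM and the conditioned libraries 7.46 to 13.2 CPM, and the log2 fold change was -1.97 (SE 0.77) with it and -0.23 without it. Control replicate 1 was the highest library in chr1:87448929-87505694, with 94.1, 30.5, 41.2 and 28.2 CPM in controls and 31.9, 29.3, 15.1 and 16.7 CPM after conditioning, and all 5 of its regions were lower. Its log2 fold change was -1.06 (SE 0.43) and was -0.53 without that library. The same library was highest in chr8:71940172-72031672, also with all 5 regions lower, at 127, 24.1, 103 and 32.6 CPM against 50.4, 33.3, 29.6 and 18.4 CPM. There the log2 fold change was -1.13 (SE 0.50), and it was 0.20 without control replicates 1 and 3, the highest libraries. In the single region chr11:102268379-102269179 the groups stood apart, at 7.98, 7.86, 9.13 and 7.54 CPM in controls and 2.71, 5.38, 2.85 and 4.70 CPM after conditioning, a log2 fold change of -1.05 (SE 0.44). Together with the tightly packed cluster on chromosome 1 these were the 6 lower clusters with an unadjusted p below 0.05, and their adjusted p in edgeR's test was 0.608 to 0.619.

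Besides chr9:64948085-65284235, chr2:25462585-25464185 and chr11:102268379-102269179, the groups stood apart in 3 further clusters. Means in chr14:56380677-56473417, with 4 regions, were 20.8 ± 5.80 and 32.6 ± 7.23 CPM, a log2 fold change of 0.65 (SE 0.33), and they include chr14:56380677-56381680, given above. The single region chr11:72951179-72951988 had 9.62, 11.5, 9.29 and 9.95 CPM in controls and 12.0, 12.8, 15.7 and 14.9 CPM after conditioning, a log2 fold change of 0.46 (SE 0.33). In chr19:53384815-53465610, with 5 regions, the means were 64.3 ± 10.4 and 50.5 ± 3.90 CPM, a log2 fold change of -0.35 (SE 0.28). Errors are SD over n = 4 per group, and in edgeR's test the adjusted p of these 3 was 0.650 to 0.797.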

How the data were processed

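Sono-seq libraries of 8 mice (4 handled controls, 4 conditioned) were analysed from the deposited tables. The authors deposited raw read counts for 11304 regions in 8 columns, all of which were used (0 unused). Per the file headers, a second table listed a carrier number and a mean z score for each region, and the authors' peak lists, called per library, gave a z score for each peak, whose scaling is not stated. Bowtie2 and the mm9 build are named in the submitters' processing notes, and which tools counted reads and called peaks, or whether repeated placements were filtered, was not given in the sources used here. Values per region are read counts without molecular identifiers, so reads are not independent molecules.

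Counts were tested with edgeR 4.0.16 under R 4.3.3 (quasi-likelihood test, TMM factors, group as the only term, two-sided, Benjamini-Hochberg over the whole table, adjusted p below 0.05). The region fit held 11304 regions (common dispersion 0.281), and the cluster fit held 9775 features with the counts of each cluster's crowded regions summed and library sizes and factors taken from the region fit. The low-count filter removed 0 regions. A log2 fold change divided by the root of its F statistic gave the SE. The fits were also run on simulated counts, drawn independently for each feature at the common dispersion. Those counts hold no outlying libraries or correlated neighbours, so that run does not bear on such cases. p-values measure the spread between animals and library preparation together.

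Regions and clusters named are the 12 clusters with the most regions, for each direction the 5 clusters and 5 regions of smallest p, the 5 regions with the highest CPM, and the largest cluster, whose 101 regions are given by range and extremes. Clusters and regions whose groups do not overlap, the 3 tightly packed clusters, the sixth lower cluster, the cluster of 9 regions that were all higher and the regions that DESeq2 called were added after their values were seen. The regions, lists and tests were chosen with earlier results of these data known. Alternatives were DESeq2 1.42.0 (size factors, Wald test), upper-quartile factors, region totals alone, limma 3.58.1 (voom), other count filters, an adjusted p of 0.1, a replicate block, each library left out, the 50 highest regions left out, the mean of log2 CPM over a cluster's regions, other rules of crowding and other z score minima. Control replicates 1 and 3 left out together was added after seeing the data. Python 3.11.15 with pandas 2.3.3 and numpy 2.4.6 read the tables. Sequences were not used here, and gene positions only within GRCm38.p6, to count genes per chromosome.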

Additional observations from a re-analysis of the deposited data

Results flagged for a closer look

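In 104 groups of 4 libraries, 16 had a highest or lowest library whose gap to its nearest neighbour exceeded Dixon's 95% critical value as a share of the group's range. Chance gives this in about 1 of 20 independent groups if the values are normally distributed, which was not checked for CPM. The groups here share 8 libraries, include regions nested in clusters, and were in part chosen for small p or high CPM, so that rate is no yardstick for their number. Conditioned replicate 2 accounted for 8 of them. It had a strong peak in 1038 crowded regions, against 1727 to 1820 in the other conditioned libraries. That library also had fewer counts over all regions, 36857885 against 75230707 to 83233550 in the others. It had a strong peak in 59.0% of the regions that were not crowded, against 92.7% to 97.4%. Its CPM was 278 in chr7:19542773-20300897 (others 212 to 218), 189 in chr12:113857977-114468748 (148 to 150.3), 58.6 in chr16:11066003-11067272 (11.7 to 12.9) and 43.4 in chr14:56380677-56473417 (28.8 to 29.3). Among single regions it was 34.8 CPM in chr14:56380677-56381680 (15.8 to 18.5), 32.4 CPM in chr10:80958629-80959267 (8.19 to 12.3) and 44.0 CPM in chr7:29052613-29053146 (4.55 to 6.64).

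Control replicate 3 accounted for 5. Its CPM was 173 in chr9:20672935-21125335 (other controls 120 to 126), 127 in chr4:153385368-153455748 (4.81 to 23.2), 79.9 in chr19:53384815-53465610 (58.2 to 59.8), 18.4 in the region chr19:4449130-4449644 (1.75 to 2.87) and 165 in the region chr13:120276369-120279315 (11.5 to 30.5). Control replicate 1 had 12.0 CPM in chr10:80812678-80813510 (3.89 to 5.18), conditioned replicate 3 had 19.4 CPM in chr10:80317743-80318510 (12.3 to 13.5), and the median level of a crowded region in conditioned replicate 1 was 6.11 CPM (6.64 to 6.69).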

How the results depend on the processing

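In edgeR's and limma's fits, 0 crowded regions and 0 clusters passed under every alternative run, with each library left out and at an adjusted p of 0.1 included. DESeq2's Wald test called 3 crowded regions and 0 clusters. Apart from that test, the smallest adjusted p over crowded regions ran from 0.131 to 0.989. At an unadjusted p below 0.05 there were 49 higher and 70 lower crowded regions, and from 62 to 240 in all under the alternatives, while clusters numbered 2 to 19. Other rules of crowding gave 586 regions (window of 50 kb), 3048 (at least 3 neighbours) and 735 (at least 6), with 0 clusters called in each. The difference in crowded regions with a peak was 27.25 with all listed peaks, against 620.25 at a z score of at least 30.

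The median log2 fold change of crowded regions (0.01) was 0.83 with region totals alone, 0.092 with upper-quartile factors, 0.10 with limma's voom, 0.10 with the replicate block and 0.077 without control replicates 1 and 3, and -0.01 to 0.06 with each library left out. Region totals alone moved the median of all regions from -0.05 to 0.75, and crowded regions lay 0.05 to 0.10 above that median in every setting. The replicate block called 0 regions and 0 clusters. Deviations of libraries with the same number correlated at 0.161, 0.0482, -0.063 and 0.272, and 1 of 4 numbers correlated best with its own. The labels give no link beyond the number, and 4 such values cannot decide whether same-numbered libraries were handled together.

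Of 892 alternative values for 48 named clusters and regions, 49 changed sign in a refit, 3 passed in DESeq2 and 9 moved by more than the spread between libraries. Those 9 came from averaging log2 CPM over a cluster's regions in place of summing counts, which gave 0.12 in chr10:79076260-81106710, -0.42 in chr13:120197466-120284190, 0.36 in chr14:56380677-56473417, 0.41 in chr17:33953446-34259910, -0.21 in chr4:153385368-153455748, -0.09 in chr6:47690083-48036983, 0.22 in chr7:4642376-5032273, -0.13 in chr8:73895022-74447080 and -0.03 in chr9:64948085-65284235. The other 831 did none of these, except that the average also changed sign in chr11:120166150-120583338 (0.12). With region totals alone the signs changed to 0.70 in chr11:120166150-120583338, 0.24 in chr11:3000188-3191332, 0.51 in chr19:53384815-53465610, 0.084 in chr1:85250694-85340939, 0.0038 in chr1:87448929-87505694, 0.59 in chr6:47690083-48036983, 0.25 in chr8:19871454-20036739, 0.11 in chr8:71940172-72031672, 0.58 in chr8:73895022-74447080, 0.61 in chr9:64948085-65284235, 0.061 in chr10:80296958-80298308, 0.65 in chr10:81105901-81106710, 0.89 in chr11:3091940-3093600, 0.053 in chr11:3093681-3098182 and 0.000265 in chr8:19917339-19920830. Without control replicates 1 and 3 they changed to -0.15 in chr12:113857977-114468748, 0.058 in chr13:120197466-120284190, 0.046 in chr1:85250694-85340939, 0.72 in chr4:153385368-153455748, 0.046 in chr8:19871454-20036739, 0.20 in chr8:71940172-72031672, 0.20 in chr10:81105901-81106710, 0.29 in chr11:3091940-3093600, -0.17 in chr16:17222160-17222603 and 0.0075 in chr8:19917339-19920830. The largest cluster, chr10:79076260-81106710, was -0.026 with DESeq2's size factors and in its Wald test and -0.012 without the 50 highest regions. Upper-quartile factors gave 0.054 in chr11:120166150-120583338, and chr10:81105901-81106710 was 0.10 with voom and 0.094 with the block.

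With each library left out, log2 fold changes spanned 0 in chr10:79076260-81106710 (-0.032 to 0.061), chr11:120166150-120583338 (-0.15 to 0.071), chr12:113857977-114468748 (-0.079 to 0.13), chr17:24563457-25097910 (-0.050 to 0.22), chr7:19542773-20300897 (-0.034 to 0.11), chr7:4642376-5032273 (-0.027 to 0.12), chr10:81105901-81106710 (-0.72 to 0.50), chr11:3091940-3093600 (-0.35 to 0.14) and chr16:17222160-17222603 (-0.024 to 0.76). Beyond what the settings themselves remove, the cause was not tested.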
